A study of Mus musculus with 6 samples.

Results

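The metalloprotease families ADAMTS, ADAMTSL, ADAM and MMP, with their inhibitors the TIMPs, were followed in C2C12 cells, an established mouse myoblast line whose cells fuse into myotubes. Members were all genes whose GENCODE M21 symbol is Adamts, Adamtsl, Adam, Mmp or Timp followed by a number and at most 1 letter: 65 of the 23154 genes in the count tables, with 18 ADAMTS, 5 ADAMTSL, 19 ADAM, 19 MMP and 4 TIMP genes. A further 19 GENCODE genes with such symbols were not among the counted genes, so they were not analysed here. The symbol rule uses no measured value. RNA-seq was performed on 3 libraries from a stable line with an inducible construct for HA-tagged NUR77 (pINDUCER20b-HA-NUR77), a nuclear receptor whose gene is Nr4a1, and on 3 from a stable line with the same vector carrying GFP. Doxycycline was given to both groups at 1 µg/mL for 18 hours, starting 24 hours after seeding, so the GFP libraries carry the drug and the vector too. Each replicate was its own dish, but only 1 stable line per construct is named, and a difference between the lines cannot be told apart from an effect of the construct. Doxycycline is also known to inhibit MMP enzymes. With no library lacking the drug, its effect on the transcripts counted here was not tested.

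These enzymes remodel the space around cells. MMPs are zinc proteases that are made as inactive precursors and cut collagens and other matrix proteins, and TIMPs block them by occupying the active site. ADAMs sit in the plasma membrane, where several shed the outer part of growth factors, cytokines and adhesion receptors, and others have lost protease activity and act as adhesion proteins. ADAMTS enzymes are secreted, trim procollagens or cut proteoglycans such as versican, and ADAMTSL proteins share their accessory domains but lack the protease. In skeletal muscle, matrix turnover of this kind accompanies myoblast migration, fusion and repair.

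Libraries held 13906096 to 22821446 reads, and no pair within a group agreed within sampling noise. The line carried the muscle marker transcripts of its label: 7 myoblast markers summed to 5700 to 6610 CPM in the HA-NUR77 libraries and 3990 to 5370 CPM in the GFP libraries, and 8 markers of differentiating myotubes to 13300 to 16000 against 8990 to 13300 CPM. CPM are read counts scaled to a common library total over tested genes, with TMM factors. In each of these lists 1 member rose and 1 fell. Fibroblast markers were low at 13 to 15.5 CPM in HA-NUR77 and 24 to 27.1 CPM in GFP, mostly Pdgfra, which fell, while Dpt rose, with Thy1 and Tcf21 at 0 reads in every library. Macrophage and leukocyte markers summed to at most 6.46 and 4.67 CPM, with 1 of 6 higher, and endothelial, adipocyte and neural markers to at most 1.24 and 1.3 CPM, with none called. The myoblast and fibroblast sums did not overlap between the groups, whereas the myotube sums did. The part of these markers in the results below was not tested. In such bulk libraries, fewer cells of a type and less RNA per cell cannot be told apart. Nr4a1 itself did not pass the test, at 22.5 ± 3.03 CPM in HA-NUR77 and 20.4 ± 7.43 CPM in GFP (SD, n = 3; edgeR adjusted p = 0.698), and the species of the insert is not stated. The labels thus have no check from that transcript, and HA-NUR77 here means the libraries labelled so.

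Falls outnumbered rises among the members with enough reads to test. Of the 65, 40 passed the filter on low counts, and by edgeR's quasi-likelihood test (Benjamini-Hochberg adjusted p under 0.05 over 12509 genes) 16 were lower and 4 higher in the HA-NUR77 libraries, where 13.2% of all tested genes were lower and 12.4% higher. At least 2-fold changes were found in 12 of the 40 members, or 30%, against 5.85% of all tested genes. The median log2 fold change of the 40 was −0.3, beside 0.01 over all tested genes. Of the tested members, 67.5% had no overlap between the groups, against 45.6% of all genes. The 12 members changed at least 2-fold had no overlap and were called in each of the 6 fits that left out 1 library. Libraries with the same replicate number deviated together, though no label states a pairing. With the replicate number as a block 22 members were lower and 7 higher, against 24.6% and 23.5% of all genes.

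**Figure D1:**
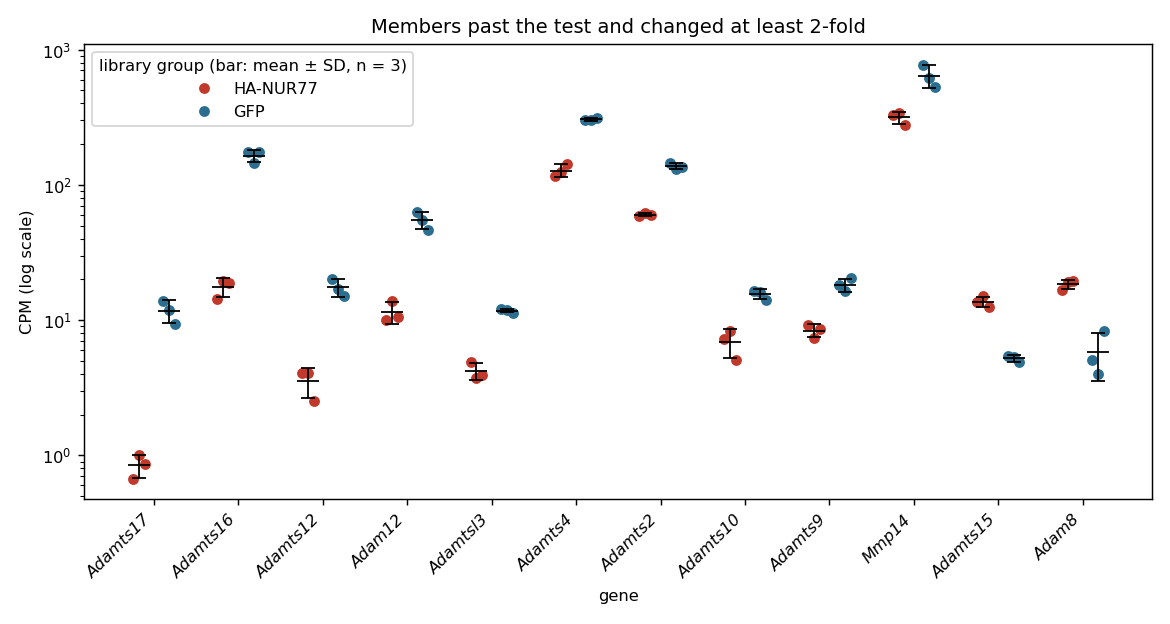
CPM (log scale) of the 12 members past the test and changed at least 2-fold, with HA-NUR77 libraries left of GFP libraries for each gene; points are libraries and bars the mean ± SD (n = 3). In each of the 12, the groups lie apart, with 10 genes lower and Adamts15 and Adam8 higher in HA-NUR77.

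**Figure D2:**
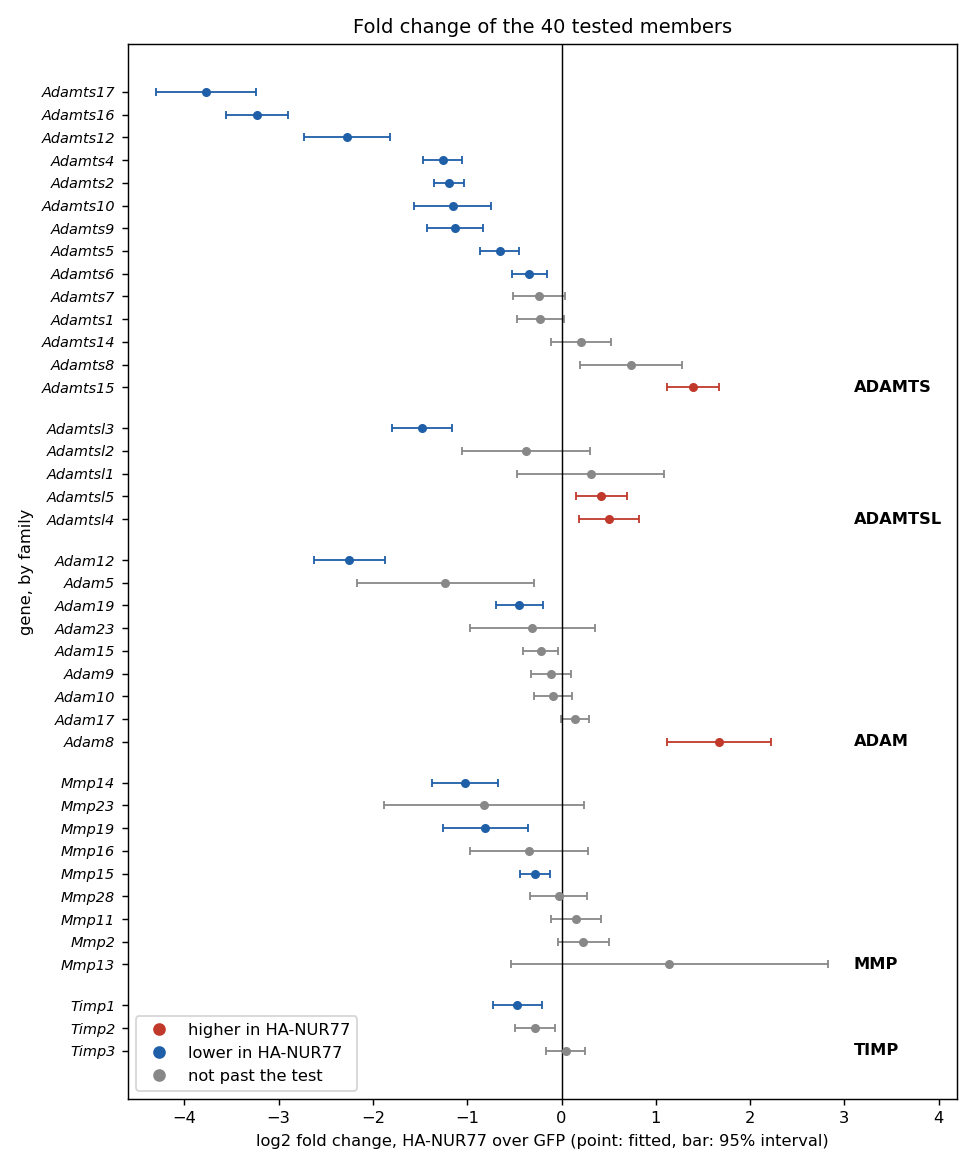
Fitted log2 fold change of the 40 tested members, HA-NUR77 over GFP, with 95% intervals, by family. The ADAMTS family spans −3.77 for Adamts17 to 1.4 for Adamts15, whereas the 3 TIMPs lie between −0.47 and 0.04.

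Among the ADAMTS genes, 9 of 14 tested members fell, 1 rose and 4 did not pass, where 13.2% of all tested genes fell and 12.4% rose. The median over the 14 was −0.89 on the log2 scale. The widest falls were in Adamts17 and Adamts16, whose substrates are less well known than those of the other groups. Adamts17 (GRCm38 chromosome 7, 66839735 to 67153171, plus strand), mutated in a human syndrome of short stature and eye defects, had 0.672, 1 and 0.862 CPM in HA-NUR77 replicates 1, 2 and 3, against 13.9, 11.8 and 9.4 CPM in GFP replicates 1, 2 and 3. Its reads numbered 13, 23 and 12 against 235, 172 and 139. Every HA-NUR77 library was far under every GFP library, a 13.7-fold fall (log2 fold change −3.77, SE 0.23, edgeR adjusted p = 0.000107). Adamts16 (chromosome 13, 70727802 to 70841811, minus strand), linked to blood pressure in rats, had 14.3, 19.5 and 18.8 CPM against 175, 144 and 173 CPM. Its GFP level was higher than that of Adamts17 per length, and it fell 9.37-fold (log2 fold change −3.23, SE 0.14, adjusted p = 5.23e-05). Its closest relative, Adamts18, had 2 reads in HA-NUR77 and 0 in GFP and was not tested.

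Adamts10 and Adamts6, a pair of related enzymes that act on fibrillin microfibrils, both fell, by unequal amounts. Adamts10 (chromosome 17, 33524204 to 33553782) had 7.24, 8.34 and 5.1 CPM in HA-NUR77 and 16.4, 16.2 and 14 CPM in GFP (−1.16 on the log2 scale, SE 0.18, edgeR adjusted p = 0.00428). Adamts6 averaged 32.6 ± 1.97 against 41.3 ± 2.4 CPM (SD, n = 3; log2 fold change −0.34, adjusted p = 0.02). It no longer passed when HA-NUR77 replicate 3 was left out (adjusted p = 0.0558), nor when GFP replicate 1 (0.0722) or 2 (0.0661) was, nor with correction for transcript length and GC content (0.061). ADAMTS genes are long, with a median of 7781 exon bases against 4493 over all tested genes, and with that correction 8 ADAMTS genes were lower and 2 higher.

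The proteoglycan-cutting ADAMTS enzymes moved in opposite directions. Of 7, 6 were tested, and Adamts4, Adamts9 and Adamts5 fell while Adamts15 rose. Adamts4 (chromosome 1, 171250421 to 171260637), a major aggrecan- and versican-cutting enzyme, had 115, 124 and 142 CPM in HA-NUR77 and 299, 303 and 314 CPM in GFP, a 2.4-fold fall (log2 fold change −1.26, SE 0.09, edgeR adjusted p = 0.000219). The 3 GFP libraries lay close together, and every HA-NUR77 library was far below them. Adamts9 (chromosome 6, 92772699 to 92943492), a versicanase also needed for cilia, had 9.15, 7.34 and 8.62 against 18.1, 16.3 and 20.3 CPM (log2 fold change −1.13, SE 0.13, adjusted p = 0.00139). It shares 9.18% of its exon bases with A730049H05Rik on the other strand, which also fell (adjusted p = 0.0304). Adamts5, the other main aggrecanase, averaged 38.4 ± 2.03 in HA-NUR77 and 60.5 ± 5.86 CPM in GFP (SD, n = 3; log2 fold change −0.65, adjusted p = 0.00271), and its groups did not overlap. Adamts1, which lies 53.1 kb from Adamts5 on chromosome 16, averaged 60.2 ± 8.75 against 70.5 ± 2.25 CPM and did not pass (log2 fold change −0.23, adjusted p = 0.158; 0.0488 with the block). Adamts20, related to Adamts9, had 0 reads in HA-NUR77 and 2 in GFP.

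Adamts15, a versican-cutting enzyme that lies back to back with Adamts8 (chromosome 9, 30899155 to 30922452, minus strand), was the 1 ADAMTS gene that rose. It had 13.6, 15 and 12.6 CPM in HA-NUR77 and 5.4, 5.36 and 4.87 CPM in GFP, a 2.63-fold rise (log2 fold change 1.4, SE 0.12, edgeR adjusted p = 0.000363). The neighbour Adamts8, 20.1 kb away on the plus strand, had 2.79, 3.58 and 4.17 CPM against 1.66, 2.47 and 2.17 CPM. Its groups did not overlap, but the test was missed narrowly (log2 fold change 0.74, SE 0.23, adjusted p = 0.0516). It passed with library totals only (0.0479), upper-quartile factors (0.0475), length and GC correction (0.048) and the block (0.00733). It did not pass by DESeq2 (adjusted p = 0.0664), and passed in 0 of the 6 edgeR fits without 1 library (adjusted p up to 0.164). The ratio of Adamts4 to Adamts15 per length was 18.3, 17.9 and 24.4 in HA-NUR77, against 119, 122 and 139 in GFP.

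Of the 3 procollagen N-propeptidases, which trim the amino end of fibrillar procollagens, 1 fell. Adamts2 (chromosome 11, 50602084 to 50807573), the main one in skin, had 59.2, 61.6 and 59.9 CPM in HA-NUR77 and 146, 132 and 136 CPM in GFP (−1.2 on the log2 scale, SE 0.07, edgeR adjusted p = 9.51e-05). Both groups were tight, and the 2.29-fold fall stood far outside their spread. Adamts14 had 126, 113 and 136 against 89.2, 106 and 129 CPM, and its groups overlapped (log2 fold change 0.21, SE 0.14, adjusted p = 0.281; 0.0473 with the block). Adamts3 had 4 and 9 reads and was not tested. The ratio of Adamts2 to Adamts14 per length was 0.27 ± 0.0293 in HA-NUR77 and 0.729 ± 0.164 in GFP (SD, n = 3). For this ratio and the other 5 reported here, groups of 3 allow no two-sided exact permutation p under 0.1, which each of the 6 reached (0.1 adjusted). Each ratio restates the unlike fold changes of its own pair of genes, so it is no independent evidence.

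Adamts12 and Adamts7, which cut the cartilage protein COMP and carry a mucin-like stretch, had unlike fold changes. Adamts12 (chromosome 15, 11064790 to 11349231) had 4.03, 4.06 and 2.51 CPM in HA-NUR77 and 20.2, 17 and 15 CPM in GFP, a 4.84-fold fall (log2 fold change −2.27, SE 0.2, edgeR adjusted p = 0.000427). Adamts7 averaged 142 ± 17.5 against 168 ± 19.6 CPM (SD, n = 3), with overlapping groups (log2 fold change −0.24, adjusted p = 0.168; 0.00482 with the block). The ratio of Adamts12 to Adamts7 per length was 0.0142 ± 0.00199 in HA-NUR77 and 0.0596 ± 0.00191 in GFP. Adamts13, which cuts von Willebrand factor in blood, had 0 reads in all 6 libraries, where 3 reads over a group would be 0.0536 CPM in HA-NUR77 and 0.0646 CPM in GFP, a limit of counting error only.

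Summed per kb of exon, ADAMTS transcripts stood at 105 ± 0.556 CPM per kb in HA-NUR77 and 181 ± 4.57 CPM per kb in GFP (SD, n = 3). Most of the gap lay in Adamts4, at 26.5 ± 2.88 against 63.5 ± 1.67 CPM per kb, and Adamts16, at 2.56 ± 0.414 against 24 ± 2.57 CPM per kb. Adamts4 was the most abundant per length in both groups. Below it in HA-NUR77 came Adamts14 (24.1 ± 2.15), Adamts7 (22.6 ± 2.78) and Adamts1 (11.3 ± 1.65), and the first 3 of this order lie within their spread of each other. In GFP, Adamts7 (26.7 ± 3.12), Adamts16 (24) and Adamts14 (20.8 ± 3.82) followed, also within their spread, then Adamts2 (14.8 ± 0.778) and Adamts1 (13.3 ± 0.424). Adamts16 thus ranked 8 in HA-NUR77 and 3 in GFP. Adamts17, for all its change, was a low transcript, at 0.109 against 1.51 CPM per kb.

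**Figure D3:**
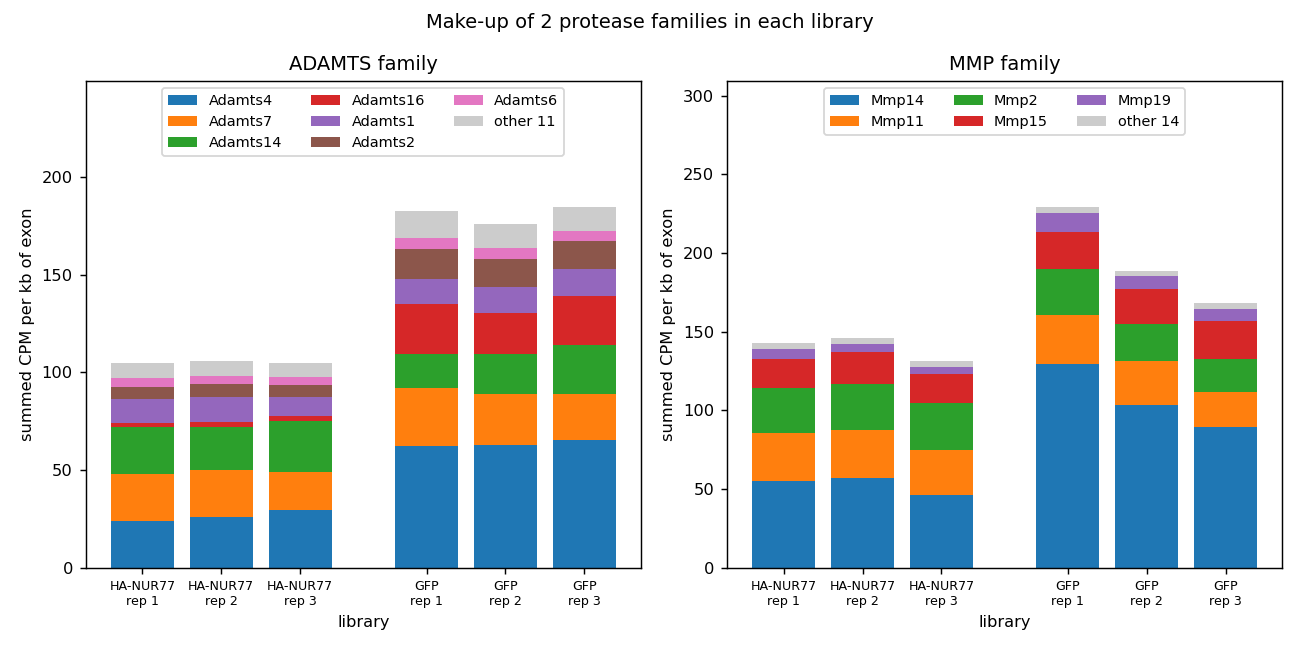
Summed CPM per kb of exon in each library for ADAMTS (left) and MMP (right), with the HA-NUR77 libraries left of the GFP libraries and colours for the leading members. The ADAMTS sum is 105 to 106 in HA-NUR77 and 176 to 185 in GFP, with a thin Adamts16 layer in HA-NUR77; the MMP sum is 132 to 146 and 168 to 229, with Mmp14 the largest layer in each.

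All 5 ADAMTSL genes were tested, and 1 fell and 2 rose, where 13.2% of all tested genes fell and 12.4% rose. Adamtsl3 (chromosome 7, 82335694 to 82614450), known from studies of human height, had 4.91, 3.75 and 3.95 CPM in HA-NUR77 and 12, 11.8 and 11.4 CPM in GFP, a 2.79-fold fall (log2 fold change −1.48, SE 0.14, edgeR adjusted p = 0.000537). Adamtsl5, the most abundant per length, had 140, 139 and 153 against 88.6, 114 and 121 CPM (log2 fold change 0.42, SE 0.12, adjusted p = 0.0357). Adamtsl4, a fibrillin-binding protein of the eye's zonule, averaged 36.9 ± 3.02 against 26 ± 4.85 CPM (SD, n = 3; log2 fold change 0.5, adjusted p = 0.0327). Both rises were lost without HA-NUR77 replicates 1, 2 or 3 or GFP replicates 1 or 2, leaving 0 higher, with adjusted p of 0.0556 to 0.0827 for Adamtsl5 and 0.0518 to 0.101 for Adamtsl4.

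Adamtsl2 and Adamtsl1 varied more among replicates than between groups. Adamtsl2, which binds fibrillin and the latent TGF-beta complex, had 19.4, 38.2 and 33.2 CPM in HA-NUR77 replicates 1, 2 and 3, against 26.3, 42.3 and 49.5 CPM in the same GFP replicates (log2 fold change −0.38, edgeR adjusted p = 0.366). Within each replicate number HA-NUR77 was the lower, and with the block the adjusted p was 0.00353. Adamtsl1 had 18.1, 16.3 and 34.2 against 12.5, 17.6 and 24.8 CPM. Replicate 3 was the highest in both groups, and the difference did not pass (log2 fold change 0.31, adjusted p = 0.517) and turned to −0.09 without HA-NUR77 replicate 3.

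Of 19 ADAM genes, 9 were tested, and 2 fell and 1 rose, where 13.2% of all tested genes fell and 12.4% rose. The meltrins, named for their part in myoblast fusion, held both falls. Adam12 (meltrin alpha; chromosome 7, 133883199 to 134232146), a protease of fusing and regenerating muscle, had 10, 13.9 and 10.6 CPM in HA-NUR77 and 63.2, 55.3 and 46.6 CPM in GFP. The groups were far apart, a 4.76-fold fall (log2 fold change −2.25, SE 0.16, edgeR adjusted p = 0.000232). Adam19 (meltrin beta), which sheds neuregulin, had 117, 156 and 131 against 180, 191 and 180 CPM (log2 fold change −0.45, SE 0.11, adjusted p = 0.0214). That call was lost, with 1 ADAM gene still lower, in 4 fits: those leaving out replicate 1 or 3 of HA-NUR77, and those leaving out replicate 1 or 2 of GFP (adjusted p of 0.0555 to 0.0683). Adam9 (meltrin gamma), the most abundant ADAM per length, had 223, 183 and 221 against 235, 225 and 217 CPM, and the groups overlapped (log2 fold change −0.11, 95% interval −0.33 to 0.1, adjusted p = 0.387). The ratio of Adam12 to Adam19 per length was 0.0573 ± 0.00302 in HA-NUR77 and 0.202 ± 0.0311 in GFP (SD, n = 3).

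Adam8 (chromosome 7, 139978932 to 139992562, minus strand), a sheddase best known from leukocytes, was the 1 ADAM gene that rose. It had 16.6, 19 and 19.5 CPM in HA-NUR77 and 5.04, 3.98 and 8.26 CPM in GFP, a 3.19-fold rise (log2 fold change 1.67, SE 0.24, edgeR adjusted p = 0.00342), and 2.01 on the log2 scale without GFP replicate 3. The 6 macrophage and leukocyte markers summed to 4.6 to 6.46 CPM in HA-NUR77 and 3.97 to 4.67 CPM in GFP. Of these, Csf1r rose 3.27-fold, with 78 reads in HA-NUR77 and 19 in GFP (1.71 on the log2 scale, SE 0.51, edgeR adjusted p = 0.0443), and was called in 2 of the 6 fits without 1 library. Cd14 had 176 and 107 reads and Cd68 44 and 26, and neither passed (adjusted p = 0.311 and 0.32). Itgam had 31 and 44 reads, Ptprc 3 and 3, and Adgre1 1 and 0, all untested. The part of these markers in the Adam8 result was not tested. Adam8 and Adam12 changed places. Their ratio per length was 3.7 ± 0.552 in HA-NUR77, where Adam8 was the more abundant, and 0.25 ± 0.133 in GFP, where Adam12 was (SD, n = 3).

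The general sheddases did not pass the test. Adam10, which cuts Notch and cadherins, had 140, 124 and 146 CPM in HA-NUR77 and 156, 147 and 135 CPM in GFP (log2 fold change −0.09, 95% interval −0.29 to 0.11, edgeR adjusted p = 0.443). Adam17, which releases TNF and EGF-receptor ligands, had 107, 102 and 104 against 90.6, 97.6 and 95.2 CPM. Its groups did not overlap, but the difference was small (log2 fold change 0.14, SE 0.06, adjusted p = 0.125). Adam15, an integrin-binding ADAM, averaged 56.4 ± 3.84 against 65.8 ± 4.21 CPM (SD, n = 3; log2 fold change −0.22, adjusted p = 0.0771; 0.00696 with the block). Adam23, a protease-inactive neural adhesion protein, had 4.55, 5.24 and 3.73 against 7.89, 5.36 and 3.59 CPM and did not pass (adjusted p = 0.443), with a log2 fold change of −0.31, and of 0.02 without GFP replicate 1.

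The remaining ADAM genes carried few reads. Adam5, of the testis-type group, had 24 reads in HA-NUR77 and 46 in GFP (log2 fold change −1.23, edgeR adjusted p = 0.0592; 0.00903 with the block). Untested members had at most 47 reads over the 6 libraries. Adam1a had 22 reads in HA-NUR77 and 25 in GFP, Adam11 27 and 17, Adam4 14 and 8, and Adam21 5 and 5. Most exon bases of Adam1a are shared with other genes on the same strand, so its reads are uncertain. Adam22 had 3 reads in each group, Adam28 1 and 0, and Adam33 0 and 2. Adam3 and Adam6b had 0 reads in every library. Adam9 lies at the end of a row of 4 ADAM genes on chromosome 8 (24677225 to 25016927, minus strand), 0.806 kb from Adam32. Adam32 had 4 reads in HA-NUR77 and 3 in GFP, against 11584 and 10457 for Adam9.

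**Figure D4:**
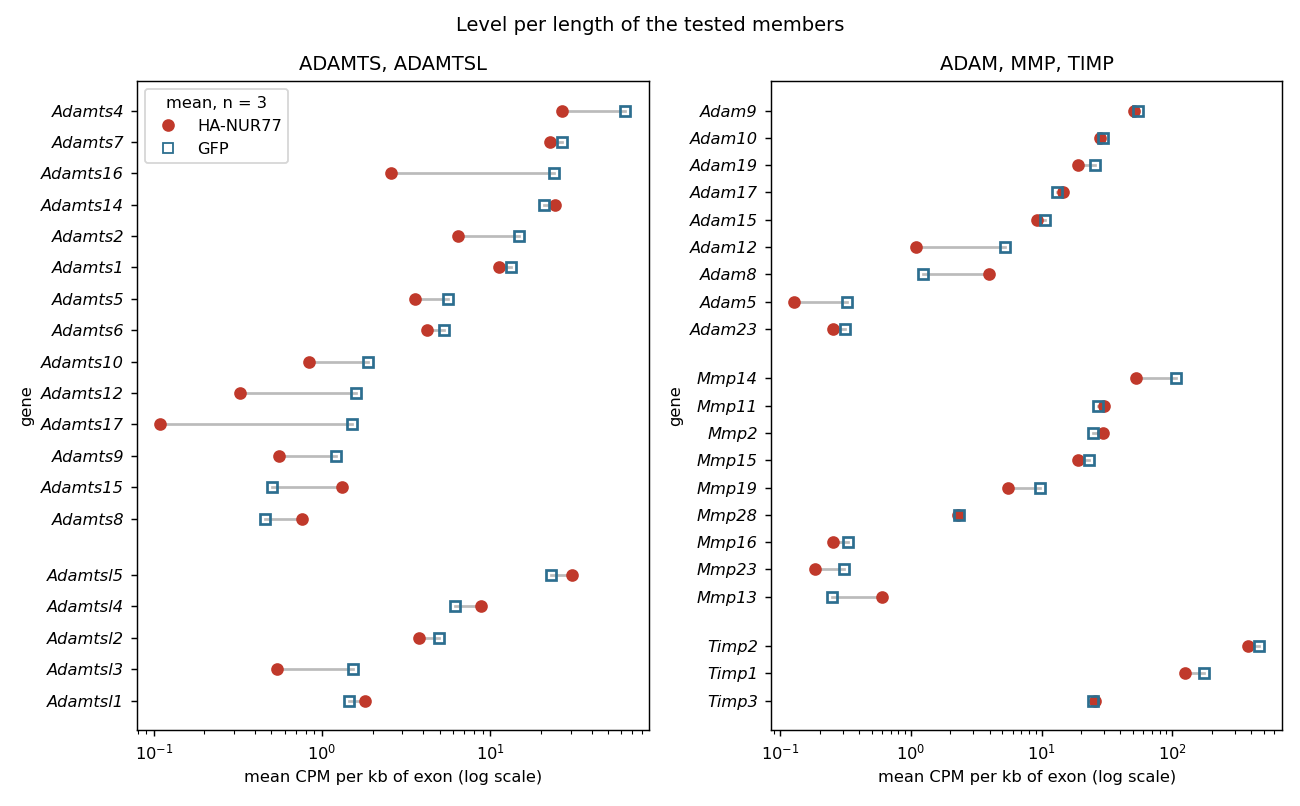
Mean CPM per kb of exon (log scale, n = 3) of the 40 tested members, with filled circles for HA-NUR77 and open squares for GFP, joined by a line and ordered by the GFP level within each family. Long lines mark Adamts16, Adamts12, Adamts17 and Adam12. Adamts4 is highest in the panel of ADAMTS and ADAMTSL genes, and Timp2, Timp1, Mmp14 and Adam9 are highest in the other panel.

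Among the MMPs, 3 of 9 tested members fell and 0 rose by edgeR, with 0 higher at an unadjusted p under 0.05 and 0 by DESeq2 or limma-voom. Over all tested genes, edgeR called 13.2% lower and 12.4% higher. Mmp14 (MT1-MMP; chromosome 14, 54431612 to 54445364), the membrane-bound collagenase that activates pro-MMP2, was the most abundant per length. It had 328, 339 and 276 CPM in HA-NUR77 and 772, 617 and 532 CPM in GFP, a 2.04-fold fall (log2 fold change −1.03, SE 0.15, edgeR adjusted p = 0.00379). The GFP libraries ranged more widely than the HA-NUR77 libraries, and the lowest GFP library was still above the highest HA-NUR77 library. Mmp15, a relative of Mmp14 in the membrane-type group, averaged 102 ± 4.73 against 124 ± 4.61 CPM (SD, n = 3; log2 fold change −0.28, adjusted p = 0.0208). Mmp19, a secreted MMP that cuts basement-membrane proteins, had 22.5, 19.3 and 16.3 against 44.2, 29.2 and 28.7 CPM (log2 fold change −0.81, adjusted p = 0.022). Both smaller falls depended on single libraries. Mmp15 lost the call when HA-NUR77 replicate 1 (adjusted p = 0.0865) or 3 (0.0608) was left out, or GFP replicate 1 (0.0724). Mmp19 lost it without HA-NUR77 replicate 2 (0.0518) or 3 (0.0599), and without HA-NUR77 replicate 3 only Mmp14 was left. Mmp19 shares 22.3% of its exon bases with Tmem198b on the other strand, and as the strand setting of the counting is unknown here, reads of such overlapping genes cannot be told apart.

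Mmp2 and Mmp11 did not pass. Mmp2 (gelatinase A), the substrate of Mmp14, had 96.8, 99.3 and 99.7 CPM in HA-NUR77 and 99.2, 81 and 71.5 CPM in GFP (log2 fold change 0.23, edgeR adjusted p = 0.171). GFP replicate 1 alone reached the HA-NUR77 level, and the call was made without it (adjusted p = 0.0369) and with the block (0.0494). Mmp11 (stromelysin 3) averaged 83 ± 3.38 against 74.8 ± 11.7 CPM (adjusted p = 0.351) and Mmp28 (epilysin) 8.87 ± 1.23 against 9.1 ± 0.239 CPM (adjusted p = 0.881). Mmp16, a further membrane-type MMP, averaged 2.19 ± 0.722 against 2.85 ± 0.522 CPM (adjusted p = 0.37). The 6 tested MMPs that did not pass had log2 fold changes of −0.83, in Mmp23, to 1.14. Mmp9 (gelatinase B), prominent in macrophages, had 18 reads in HA-NUR77 and 10 in GFP, Mmp17 26 and 15, and Mmp24 10 and 15, and none was tested. Mmp25 had 0 reads.

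The counted collagenase, stromelysin and matrilysin genes on chromosome 9 were nearly silent. Mmp1b, whose exons overlap those of Mmp12, was not among the counted genes, so its level is unknown here. Over 7 neighbours between 7272514 and 7699585, Mmp13 (collagenase 3) was the 1 with enough reads to test, and the other 6 had at most 3 reads each over all libraries, those of Mmp10, Mmp12 and Mmp3 all in HA-NUR77. Mmp13 had 16, 13 and 48 reads in HA-NUR77 and 12, 8 and 11 in GFP, or 0.827, 0.568 and 3.45 against 0.712, 0.549 and 0.744 CPM. HA-NUR77 replicate 3 stood apart, the groups overlapped (log2 fold change 1.14, SE 0.72, edgeR adjusted p = 0.269), and the log2 fold change was 0.04 without that library.

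The windows before the starts of these genes are shown because members of the cluster share a motif there and have few reads. The AP-1 motif, TGANTCA on both strands, which is its own reverse complement, is bound by Fos and Jun proteins and is well known in MMP promoters. It was in the 250 bases before a RefSeq start (GRCm38.p6) in 5 of the 7 counted cluster genes. That is 5 of their 9 windows, against 6.75% of all 32851 windows. Over all members, 42 of 65 matched a window by symbol, with 47 windows, of which 12.8% held the motif, the sixth being of Adam19. The cluster was picked for this shared match, and its genes are neighbours of the same family, so its share is no independent evidence. The 80 bases before the start are given on the plus strand with the match in capitals, first bases 63, 46, 35, 44 and 63 before the start in Mmp10, Mmp3, Mmp13, Mmp12 and Mmp7. They are chr9:7502262-7502341, chr9:7445742-7445821, chr9:7272434-7272513, chr9:7347294-7347373 (a second start, inside the Mmp12 gene) and chr9:7692010-7692089. A match is only a stretch of letters.
Mmp10: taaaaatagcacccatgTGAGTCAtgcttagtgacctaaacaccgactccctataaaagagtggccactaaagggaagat
Mmp3: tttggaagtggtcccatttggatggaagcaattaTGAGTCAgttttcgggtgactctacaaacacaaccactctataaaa
Mmp13: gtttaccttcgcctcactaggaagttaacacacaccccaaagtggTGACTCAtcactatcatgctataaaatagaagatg
Mmp12: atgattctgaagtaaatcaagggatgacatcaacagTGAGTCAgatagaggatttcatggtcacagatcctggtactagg
Mmp7: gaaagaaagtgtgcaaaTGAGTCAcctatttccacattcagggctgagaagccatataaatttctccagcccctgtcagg

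Motifs of the factors in the series title were searched in the same windows. The NBRE, AAAGGTCA, the site that NUR77 binds as a monomer, was in 0 of the 47 member windows and 1.34% of all windows, searched on both strands. At so low a share, 0 matches in 47 windows allow no conclusion. Windows were matched for 9 of the 16 lower and 3 of the 4 higher members. Adamts16, Adamts4, Adam12 and Adamts15 were among those without a window, so they were not searched. The YY1 core, CCATNTT or its reverse complement AANATGG, was in 8.51% of member windows and 12.4% of all windows. Among members with a window, 3 of 9 lower and 0 of 3 higher ones held it. So did 1 of 13 that did not pass and 0 of 17 untested, and a link with direction was not tested. The 4 genes with the core were Adam17, which did not pass, and Adamts17, Mmp15 and Timp1, which fell. The windows of these last 3 are given on the plus strand with the match in capitals (chr7:66839485-66839734, chr8:95352046-95352267 and chrX:20869916-20870165), and the bases of Mmp15 stop where its annotated exon begins. The match starts 29, 180 and 162 bases before the start in that order. These letters do not show binding.
Adamts17: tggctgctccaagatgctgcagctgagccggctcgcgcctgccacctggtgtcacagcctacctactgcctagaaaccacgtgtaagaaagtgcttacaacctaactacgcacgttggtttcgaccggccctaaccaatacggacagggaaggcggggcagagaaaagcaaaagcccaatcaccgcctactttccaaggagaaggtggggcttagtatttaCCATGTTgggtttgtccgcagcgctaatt
Mmp15: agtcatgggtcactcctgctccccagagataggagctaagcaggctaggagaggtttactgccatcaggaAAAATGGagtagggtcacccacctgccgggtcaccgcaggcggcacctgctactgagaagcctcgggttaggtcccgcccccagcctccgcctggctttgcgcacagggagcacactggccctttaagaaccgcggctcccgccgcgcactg
Timp1: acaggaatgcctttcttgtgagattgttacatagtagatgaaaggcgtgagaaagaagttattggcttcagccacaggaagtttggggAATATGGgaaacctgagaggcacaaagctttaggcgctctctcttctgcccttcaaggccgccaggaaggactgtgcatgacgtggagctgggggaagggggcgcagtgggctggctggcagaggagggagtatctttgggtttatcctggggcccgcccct

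Of the TIMPs, 1 of 3 tested members fell and 0 rose by edgeR, with 0 higher at an unadjusted p under 0.05 and 0 by DESeq2 or limma-voom. The edgeR shares over all tested genes were 13.2% lower and 12.4% higher. Timp1 (chromosome X, 20870166 to 20874735), a secreted inhibitor of most soluble MMPs, had 123, 117 and 95.4 CPM in HA-NUR77 and 150, 172 and 143 CPM in GFP (−0.47 on the log2 scale, SE 0.11, edgeR adjusted p = 0.0227). The groups did not overlap, but the call was lost without GFP replicate 1 or 2 (adjusted p = 0.0665 and 0.0686), leaving 0. Timp2 (chromosome 11, 118301069 to 118355740), which also helps Mmp14 activate pro-MMP2, had 1434, 1461 and 1554 against 1803, 1676 and 1930 CPM. These groups did not overlap either, and the test was missed narrowly (log2 fold change −0.28, SE 0.09, adjusted p = 0.0585). Timp2 passed with the block (0.00256), by DESeq2 (0.00541) and with length and GC correction (0.04). It passed in 0 of the 6 edgeR fits without 1 library (adjusted p up to 0.182). Timp3 (chromosome 10, 86300372 to 86349506), the matrix-bound TIMP that also inhibits ADAM17 and ADAMTS enzymes, had 207, 223 and 196 against 188, 225 and 194 CPM. It did not pass (log2 fold change 0.04, 95% interval −0.17 to 0.25, adjusted p = 0.752). Timp4 had 6 reads in each group.

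Per length, inhibitor transcripts far outnumbered those of the MMPs in both groups. TIMPs summed to 532 ± 2.09 CPM per kb in HA-NUR77 and 662 ± 15.7 CPM per kb in GFP, of which Timp2 was 71.5% and 69.9%. MMPs summed to 140 ± 7.47 and 195 ± 31 CPM per kb (SD, n = 3), with Mmp14 at 37.7% and 55%. ADAMs summed to 127 ± 4.49 against 142 ± 4.96 CPM per kb, and ADAMTSL genes to 45.5 ± 3.58 against 36.9 ± 6.49 CPM per kb. The ADAMTSL sums alone overlapped between the groups. The ratio of Mmp14 to Timp2 per length was 0.15, 0.152 and 0.116 in HA-NUR77 and 0.28, 0.24 and 0.18 in GFP, without overlap.

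Of 23 activators and regulators of these proteases, 19 were tested, and 4 rose and 4 fell, where 12.4% of all tested genes rose and 13.2% fell. With the block 8 were higher and 6 lower, against 23.5% and 24.6% of all tested genes. Their median change was −0.03 on the log2 scale, beside 0.01 over all tested genes. TspanC8 tetraspanins carry ADAM10 to the cell surface, and of 6 listed, 5 were tested and 3 rose. Tspan15 rose 2.19-fold (log2 fold change 1.13, SE 0.11, edgeR adjusted p = 0.000851) and Tspan14 (0.41, SE 0.07, adjusted p = 0.00836) and Tspan5 (0.42, SE 0.08, adjusted p = 0.0104) rose less. Tspan17 (−0.21, adjusted p = 0.136; 0.021 with the block) and Tspan33 (−0.17, adjusted p = 0.564) did not pass, and Tspan10 had 0 reads. Pcsk6, a proprotein convertase, fell (−2.01, SE 0.31, adjusted p = 0.00473). Furin, which activates Mmp14 and many ADAM and ADAMTS precursors, stood at 148 and 161 CPM (−0.12, adjusted p = 0.271). Reck, a membrane inhibitor of MMPs, did not pass (−0.5, adjusted p = 0.0665; 0.023 with the block).

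Of 19 listed substrates of ADAMTS enzymes, 13 were tested, and 10 fell and 1 rose, with and without the block, where 13.2% of all tested genes fell and 12.4% rose. Their median change was −0.99 on the log2 scale. Several of these genes were already known to fall in these libraries when the list was drawn up, so its count is no independent evidence of a direction. Col1a1, the substrate of Adamts2, fell (−2.39, SE 0.12, edgeR adjusted p = 7.76e-05), as did thrombospondin 1, Thbs1 (−1.56, SE 0.13, adjusted p = 0.000326), and Ltbp2, a microfibril protein (−0.99, SE 0.12, adjusted p = 0.00198). The 1 riser was Ltbp1, a relative of Ltbp2 that binds latent TGF-beta (0.82, SE 0.14, adjusted p = 0.00725). Versican, Vcan, cut by Adamts1, Adamts4, Adamts5, Adamts9 and Adamts15, averaged 820 CPM in HA-NUR77 and 2200 CPM in GFP (−1.42, SE 0.18, adjusted p = 0.00226). Aggrecan, Acan, had 0 reads in every library and Comp 2 in each group. Of 30 substrates shed by ADAM10 and ADAM17, 24 were tested, and 4 rose and 4 fell, again beside 12.4% and 13.2% of all tested genes. With the block 4 were higher and 13 lower, against 23.5% and 24.6%. Their median change was −0.17 on the log2 scale. Cdh11, a mesenchymal cadherin (−1.49, SE 0.13, adjusted p = 0.000398), and the Notch ligand Dll1 (−1.18, SE 0.12, adjusted p = 0.000857) fell, and the adhesion protein L1cam rose (1.26, SE 0.14, adjusted p = 0.00142).

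Among related proteins outside the symbol rule, 6 of 11 with a row were tested, and 1 rose and 1 fell. Of all tested genes, 12.4% rose and 13.2% fell. Bmp1, the procollagen C-proteinase, fell (−0.64, SE 0.09, edgeR adjusted p = 0.00287), and Pcolce2, an enhancer of that enzyme, rose (0.65, SE 0.1, adjusted p = 0.00435). The related proteinase Tll1 had 36 reads in HA-NUR77 and 4 in GFP and was not tested.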

How the data were processed

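RNA was measured in 3 HA-NUR77 and 3 GFP libraries of C2C12 cells, made with a stranded poly(A) kit from 1000 ng of total RNA and 12 cycles of PCR, per the labels' protocols. The deposited files hold raw read counts per Ensembl gene for 1 library each. TopHat2 2.1, HTSeq, DESeq2 and the build mm10 are named in the submitters' processing notes, and the annotation release and strand setting are not given in the sources used here. Of 23154 gene IDs, 22888 had a GENCODE M21 symbol.

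Counts were fitted with edgeR 4.0.16 in R 4.3.3 (quasi-likelihood, TMM, filterByExpr with a minimum count of 10, Benjamini-Hochberg over all 12509 genes kept, threshold 0.05), after checks on simulated data. An SE is the log2 fold change divided by the root of F. Levels of different genes were compared per kb of the union of GENCODE exons. Promoter windows were from RefSeq. Alternatives were a replicate block, length and GC correction, other scalings and filters, DESeq2 1.42.0, limma-voom (limma 3.58.1) and leaving out each library. Same-numbered libraries deviated together (correlations 0.2501, 0.5512 and 0.4745, against −0.4367 to −0.0547 for other pairs). The numbers were taken to pair the libraries in the block fits only, and the main fit used the group alone. No label states that pairing. The deviations were taken from each group's mean, so the correlations are not independent of each other.

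Members and lists were chosen with earlier results of these data known. By rule, values in each library were given for members past the test with an absolute log2 fold change of at least 1, all TIMPs tested and the most abundant member per length of each family. Other members given with values in each library were chosen after their values were seen. P-values measure the spread between dishes of 1 line per construct.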

Additional observations from a re-analysis of the deposited data

How the results depend on the processing

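Over the 40 tested members, RLE size factors, limma-voom and no filter kept every direction and call, and with a minimum count of 30 the 37 still tested did too. DESeq2, upper-quartile factors and library totals each added 1 call, and length and GC correction added 2 and removed 1. The replicate block added 9 calls and removed none, and with length and GC correction it added 11. With the block, 2942 genes were higher and 3071 lower, with 7 members higher, 3 ADAMTS higher, 2 ADAMTSL lower, 4 ADAM lower, 1 MMP higher and 2 TIMP lower. With the block and length and GC correction, the counts were 2982 and 2868 genes, 8 members higher, 3 ADAMTS higher, 3 ADAMTSL higher, 2 ADAMTSL lower, 2 ADAM higher, 5 ADAM lower and 2 TIMP lower. ADAMTS higher was 2 with length and GC correction, upper-quartile factors or library totals, and TIMP lower was 2 with length and GC correction or DESeq2. The cause of these shifts was not tested.

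Without 1 library each, fewer samples were fitted, and 642 to 1489 genes were higher and 850 to 1572 lower. Members ranged from 2 to 4 higher and 12 to 16 lower, ADAMTS from 1 to 1 higher and 8 to 9 lower, ADAMTSL from 0 to 2 higher and 1 to 1 lower, ADAM from 1 to 1 higher and 1 to 2 lower, MMP from 0 to 1 higher and 1 to 3 lower, and TIMP from 0 to 0 higher and 0 to 1 lower. No called member changed sign. Of those not past the test, 4 did: Adamtsl1 (−0.0872 without HA-NUR77 replicate 3, up to 0.584), Mmp28 (−0.105, up to 0.072 without HA-NUR77 replicate 3), Adam23 (−0.554, up to 0.0232 without GFP replicate 1) and Timp3 (−0.00762 without GFP replicate 1 and −0.00593 when HA-NUR77 replicate 2 was left out, up to 0.126). The 25 untested members had at most 47 reads over all libraries, which limits what these depths can show of them.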
